A study of Mus musculus with 14 samples.

Results

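Expression of 10 genes of innate immune signaling was measured in mouse brain. Myd88, Ticam1, Mavs and Tmem173 encode the adaptors that MyTrMaSt null mice lack, and Irak1, Irak4, Traf6, Traf3, Tbk1 and Ikbke encode the kinases and ubiquitin ligases through which these adaptors signal. The genes were chosen by symbol and are 10 of the 13866 genes in the deposited count table. A filter on low counts left 8 of them among the 11852 genes tested. Irak4 and Ikbke did not pass it, and their values come from a fit without the filter.

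Brain RNA was sequenced from 14 mice aged 19 days, with 1 library per mouse. WT mice were C57BL/6JOlaHsd, bought from a supplier, and MyTrMaSt null mice were Myd88-/-, Trif-/- (Ticam1-/-), Mavs-/- and Tmem173-/-. Mice were injected daily with conduritol B-epoxide (CBE) at 100 mg/kg, an irreversible inhibitor of the lysosomal enzyme acid beta-glucosidase used to model neuronopathic Gaucher disease, or with PBS. The 4 groups were WT + PBS (n = 3), WT + CBE (n = 3), MyTrMaSt + PBS (n = 3) and MyTrMaSt + CBE (n = 5). The strain background of the MyTrMaSt null mice and the exons removed at each locus are not given in the sources used here, and the WT mice are not described as their littermates, so genotype and colony cannot be told apart.

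Libraries were made from transcript 3′ ends (MARSseq) and held 1290616 to 3704691 counts, the fewest in WT + PBS replicate 1. That library stood apart from its group, with a chi-square per degree of freedom of 20.2 and 18.1 against replicates 2 and 3, where the other 17 pairs of replicates gave 2.31 to 7.20, so the main results against WT + PBS are also given without it. Levels are given as CPM, the counts scaled to the size of each library, and are compared between groups and not between genes. Counts of Xist, which female cells express, were 0 in all WT + PBS libraries, 1 to 47 in WT + CBE, 32 to 46 in MyTrMaSt + PBS and 0 to 39 in MyTrMaSt + CBE, so the sexes were not balanced over the groups. Xist fully separated the genotypes with PBS, so sex and genotype cannot be told apart in that comparison. A gene was called differentially expressed (DE) at an adjusted p below 0.05 and a 2-fold or larger difference (edgeR quasi-likelihood test, Benjamini-Hochberg over the 11852 genes). The p values set a difference between groups against the spread between mice of a group, estimated over all groups together. In whole brain RNA, a change in the number of cells of a type and a change in the RNA of each cell cannot be told apart.

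Adaptors pass a signal from a receptor that has bound a microbial or self ligand to the enzymes that switch on inflammatory genes. MyD88 serves most Toll-like receptors and the IL-1 receptor family, and assembles the kinases IRAK4 and IRAK1 with the ubiquitin ligase TRAF6, a route that ends at NF-kappaB. TRIF, the product of Ticam1, serves TLR3 and TLR4. MAVS, on mitochondria, serves the RNA sensors RIG-I and MDA5. STING, the product of Tmem173, responds to the cyclic dinucleotide that the DNA sensor cGAS makes. These last adaptors converge on the kinases TBK1 and IKKepsilon (Ikbke), with TRAF3 as a ligase on the way, and the kinases phosphorylate IRF3 and IRF7, which turn on type 1 interferon genes. In brain, microglia are the cells best known for this machinery.

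Promoters of 3 genes are shown because Myd88 and Ikbke were lower in MyTrMaSt + CBE than in WT + CBE and because Traf3 holds the only other match to a searched motif. A promoter is the stretch from 250 bases before to 50 bases after the annotated start (RefSeq, GRCm38.p6, 5′ to 3′ on the strand of the gene), and 9 of the 10 genes matched an entry. Both strands were searched for the core of the interferon-stimulated response element (ISRE, GAAANNGAAA), a NF-kappaB site (GGGNNTTTCC) and the STAT site GAS (TTCNNNGAA). Of all 32851 promoters in the table, 3.44% held the ISRE core, 1.63% the NF-kappaB site and 8.30% the GAS. Capitals mark the matches.
Myd88, chr9:119339969-119340268, minus strand: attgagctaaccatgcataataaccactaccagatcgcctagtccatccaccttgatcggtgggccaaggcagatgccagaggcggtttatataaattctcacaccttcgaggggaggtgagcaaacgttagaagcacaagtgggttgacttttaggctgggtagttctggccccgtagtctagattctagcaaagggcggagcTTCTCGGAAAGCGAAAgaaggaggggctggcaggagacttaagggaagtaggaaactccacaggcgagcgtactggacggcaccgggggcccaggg
Ikbke, chr1:131279514-131279813, minus strand: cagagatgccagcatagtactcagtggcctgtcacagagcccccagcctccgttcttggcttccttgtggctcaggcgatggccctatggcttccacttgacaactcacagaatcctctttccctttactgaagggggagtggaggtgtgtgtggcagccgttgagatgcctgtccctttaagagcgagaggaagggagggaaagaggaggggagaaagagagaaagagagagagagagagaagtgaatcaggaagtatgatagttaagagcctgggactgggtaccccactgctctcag
Traf3, chr12:111166120-111166419, plus strand: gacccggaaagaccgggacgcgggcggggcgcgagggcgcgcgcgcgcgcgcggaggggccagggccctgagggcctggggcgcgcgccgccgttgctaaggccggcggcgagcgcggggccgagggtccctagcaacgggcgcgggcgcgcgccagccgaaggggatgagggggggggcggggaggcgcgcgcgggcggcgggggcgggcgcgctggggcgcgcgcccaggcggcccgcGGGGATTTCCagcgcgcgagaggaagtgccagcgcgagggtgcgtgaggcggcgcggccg

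Matches were present in 2 of the 9 promoters. In Myd88, the ISRE core GAAAGCGAAA began 40 bases before the start and the GAS TTCTCGGAA 46 bases before it, so that the matches share 3 bases and print as 1 run of capitals. In Traf3, the NF-kappaB site GGGGATTTCC began 10 bases before the start. The Ikbke promoter held none of these letter patterns, which says nothing of the factors that bind there. A match describes the sequence and not a bound site.

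Counts of the 4 deleted genes were examined first. None of the 4 was at 0 in the MyTrMaSt libraries. In MyTrMaSt + PBS, all Myd88 libraries lay below and all Tmem173 libraries above those of WT + PBS, without passing the test (adjusted p = 0.0603 and 0.101), and the libraries of Ticam1 and Mavs overlapped with WT. Sex and genotype cannot be told apart between these groups. Reads of a 3′ end library can come from the last exon even where upstream exons are gone, and whether the removed exons hold the counted stretch is not given, so these counts check neither the genotype labels nor the absence of the proteins. In the GENCODE M21 annotation of GRCm38, the last exon spans 966 bases in Myd88, 2899 in Ticam1, 1662 in Mavs and 1018 in Tmem173.

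Myd88 (ENSMUSG00000032508.8, chromosome 9, 119335934 to 119341411, minus strand, 6 exons) was lower in MyTrMaSt + CBE than in WT + CBE, and its levels did not overlap between genotypes under either treatment. Its level was 17.1, 9.95 and 13.1 CPM in the WT + PBS libraries, from 19, 36 and 31 counts, and 20.7, 27.2 and 27.1 CPM in WT + CBE, from 71, 58 and 45 counts. In MyTrMaSt + PBS it was 3.11, 4.49 and 4.23 CPM, from 9, 17 and 12 counts, and in MyTrMaSt + CBE it was 8.57, 7.51, 5.67, 10.8 and 3.91 CPM, from 22, 20, 14, 22 and 10 counts. All 8 MyTrMaSt libraries lay below every WT library of the same treatment. The order of the group means was WT + CBE (25.0 ± 3.76, SD, n = 3), WT + PBS (13.4 ± 3.61, SD, n = 3), MyTrMaSt + CBE (7.30 ± 2.66, SD, n = 5) and MyTrMaSt + PBS (3.94 ± 0.734, SD, n = 3), and the ranges of WT + PBS and MyTrMaSt + CBE overlapped, as did those of both MyTrMaSt groups.

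In MyTrMaSt + CBE versus WT + CBE, Myd88 was 3.41-fold lower (log2 fold change -1.77, SE 0.261, 95% interval -2.32 to -1.22, adjusted p = 0.000294), and this was the only 1 of the 8 tested genes that was DE, where 2.01% of all tested genes were. In MyTrMaSt + PBS versus WT + PBS it was 3.17-fold lower (log2 -1.66, SE 0.341, adjusted p = 0.0603), which missed the threshold, and 0.16% of all tested genes were DE there. With DESeq2 the same difference had an adjusted p of 0.00260, without WT + PBS replicate 2 it had 0.0200, without MyTrMaSt + CBE replicate 4 or 5 it had 0.0458 and 0.0452, and without WT + PBS replicate 1 it had 0.0567 (log2 -1.51). In WT + CBE versus WT + PBS, Myd88 was 1.94-fold higher (log2 0.96, SE 0.288, interval 0.35 to 1.57, adjusted p = 0.0401), below the 2-fold threshold, and DE without WT + PBS replicate 1 (log2 1.13, adjusted p = 0.0103). In MyTrMaSt mice the change with CBE was 1.81-fold (log2 0.85, SE 0.325, interval 0.17 to 1.54, adjusted p = 0.120). The changes with CBE differed between genotypes by -0.11 on the log2 scale, with an interval from -1.08 to 0.87 (adjusted p = 0.941).

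In WT mice the adjusted p of Myd88 depended on single libraries. It rose to between 0.0525 and 0.142 when WT + PBS replicate 2 or 3, WT + CBE replicate 2 or 3, MyTrMaSt + PBS replicate 2 or MyTrMaSt + CBE replicate 2 was left out, and the log2 change stayed between 0.76 and 1.13. The lower level in MyTrMaSt + CBE held in each of the 14 fits that left out a library (log2 -1.93 to -1.62). On the opposite strand, Acaa1a, a peroxisomal thiolase gene, shares 290 exon bases with Myd88, none in the last exon of Myd88. Acaa1a did not pass the test between genotypes with PBS (log2 0.21, SE 0.183, adjusted p = 0.556) or with CBE (log2 0.09, SE 0.166).

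Tmem173 (ENSMUSG00000024349.10, chromosome 18, 35733679 to 35740554, minus strand, 8 exons) had its lowest level in WT + PBS. It was 0.903, 2.49 and 1.69 CPM there, from 1, 9 and 4 counts, and 8.73, 6.57 and 6.03 CPM in WT + CBE, from 30, 14 and 10 counts. In MyTrMaSt + PBS it was 6.22, 5.02 and 7.05 CPM, from 18, 19 and 20 counts, and in MyTrMaSt + CBE it was 6.62, 12.8, 7.70, 9.35 and 9.39 CPM, from 17, 34, 19, 19 and 24 counts. Every WT + PBS library lay below all 11 other libraries, whose 3 groups overlapped in range.

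In WT + CBE versus WT + PBS, Tmem173 was 3.71-fold upregulated (log2 1.89, SE 0.395, interval 1.06 to 2.72, adjusted p = 0.00385). It was the only 1 of the 8 tested genes that was DE in this comparison, beside 6.4% of all tested genes, and it stayed DE without each library in turn (log2 1.70 to 2.33, and 1.75 without WT + PBS replicate 1). In MyTrMaSt + CBE versus MyTrMaSt + PBS the log2 change was 0.60 (SE 0.267, interval 0.04 to 1.16, adjusted p = 0.183). In MyTrMaSt + PBS versus WT + PBS the level was 3.07-fold higher (log2 1.62, SE 0.394, interval 0.79 to 2.45, adjusted p = 0.101), past the threshold only without WT + PBS replicate 2 (log2 2.04, adjusted p = 0.0420) and at log2 1.45 without WT + PBS replicate 1 (adjusted p = 0.166). With CBE the genotypes differed by 0.33 on the log2 scale (interval -0.25 to 0.90). The difference between the genotypes in the change with CBE was -1.29 (SE 0.484, interval -2.31 to -0.27, adjusted p = 0.310), and -1.14 without WT + PBS replicate 1 (adjusted p = 0.402).

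Neither Ticam1 nor Mavs passed the test in any comparison. Ticam1 (ENSMUSG00000047123.8, chromosome 17, 56269319 to 56276786, minus strand, 2 exons) had 10 to 26 counts in each library. WT mice averaged 6.86 ± 1.90 CPM with PBS and 7.70 ± 3.08 with CBE (SD, n = 3 each). MyTrMaSt mice averaged 4.73 ± 1.86 CPM with PBS (SD, n = 3) and 5.93 ± 1.64 with CBE (SD, n = 5), and all groups overlapped. Between genotypes its log2 difference was -0.41 with PBS (interval -1.21 to 0.38) and -0.34 with CBE (interval -1.03 to 0.35).

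Mavs (ENSMUSG00000037523.13, chromosome 2, 131234063 to 131248025, plus strand, 7 exons) had 7 to 31 counts in each library. WT mice averaged 7.86 ± 1.79 CPM with PBS and 9.996 ± 1.78 with CBE (SD, n = 3 each), and MyTrMaSt mice 5.67 ± 2.86 with PBS (SD, n = 3) and 6.26 ± 3.21 with CBE (SD, n = 5). The groups compared overlapped, with MyTrMaSt + CBE replicate 1 at 11.7 CPM and MyTrMaSt + PBS replicate 3 at 2.47 CPM. The log2 difference between genotypes was -0.38 with PBS (interval -1.28 to 0.51) and -0.64 with CBE (interval -1.42 to 0.13, adjusted p = 0.791). At this depth a 2-fold loss of Ticam1 or Mavs lies inside these intervals.

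**Figure D1:**
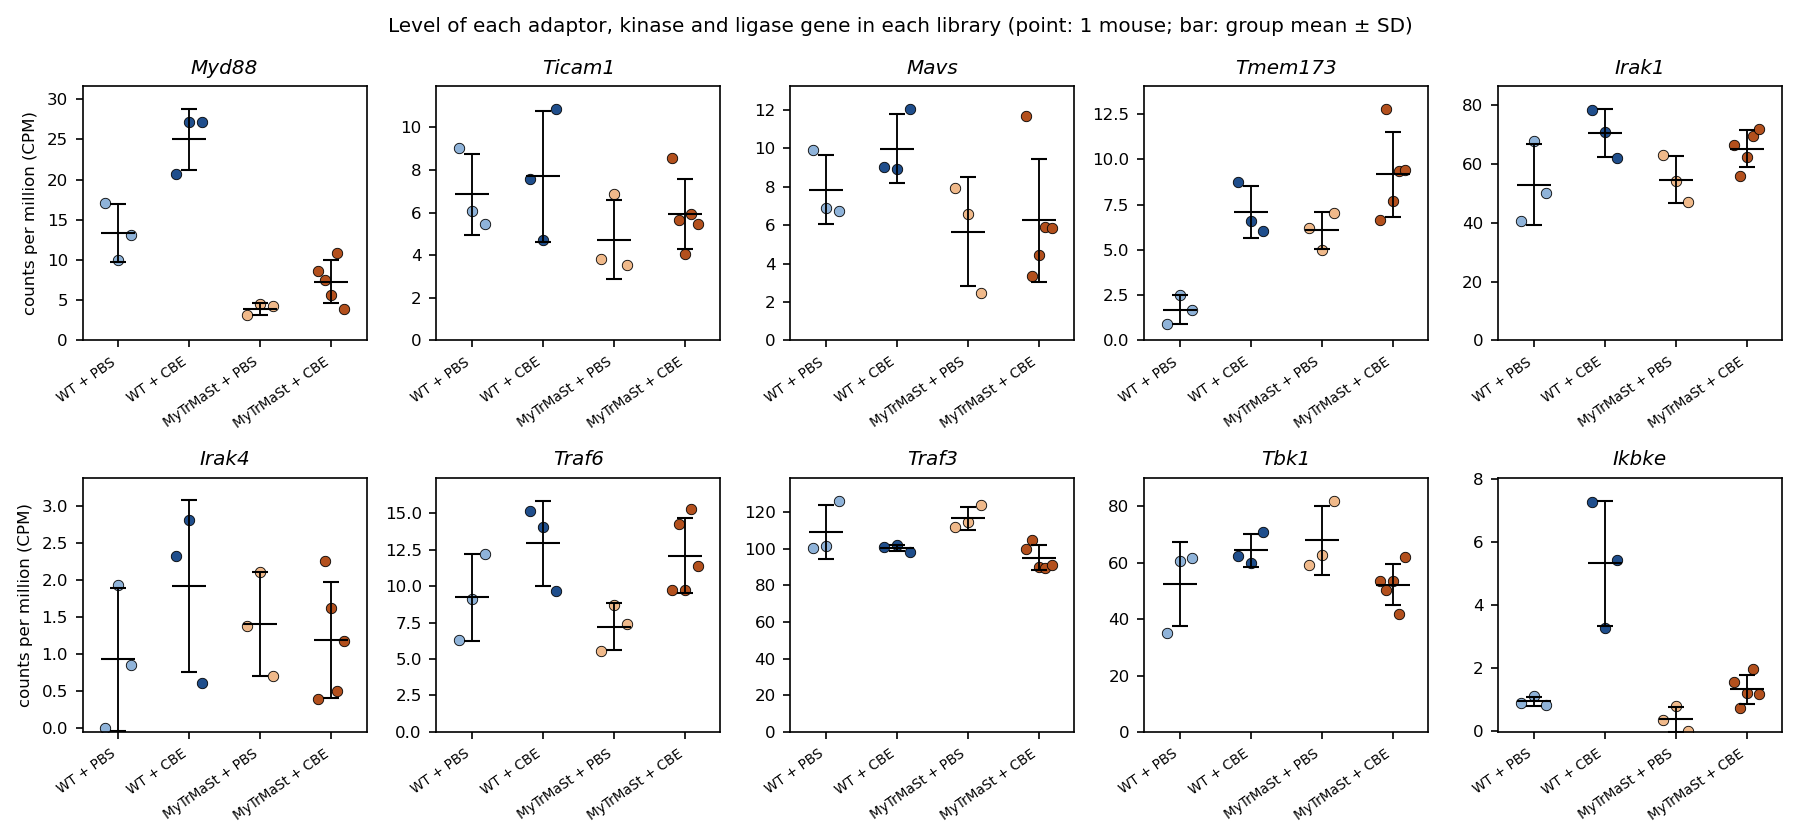
Level of each of the 10 genes (vertical axis, CPM, a separate scale for each gene) in the 4 groups; a point is 1 mouse and the bar is the group mean ± SD. Myd88 lies lower in both MyTrMaSt groups, Tmem173 is lowest in WT + PBS and Ikbke is highest in WT + CBE, where the other genes overlap between most groups.

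Ikbke encodes IKKepsilon, the inducible relative of TBK1, and was higher with CBE in WT mice. It lies on chromosome 1 (ENSMUSG00000042349.13, 131254343 to 131279606, minus strand, 22 exons). It was counted 1, 4 and 2 times in WT + PBS and 25, 7 and 9 times in WT + CBE, or 0.903, 1.105 and 0.844 CPM against 7.27, 3.29 and 5.42 CPM. In MyTrMaSt + PBS it was counted 1, 3 and 0 times, and in MyTrMaSt + CBE 4, 2, 3, 4 and 3 times (1.56, 0.751, 1.22, 1.97 and 1.17 CPM). Each WT + CBE library lay above all 11 other libraries.

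In the fit of all 13866 genes without the filter, Ikbke was 5.38-fold upregulated in WT + CBE versus WT + PBS (log2 2.43, SE 0.542, interval 1.29 to 3.56, adjusted p = 0.00684), where 5.96% of the genes in that fit were DE. It was 4.10-fold lower in MyTrMaSt + CBE than in WT + CBE (log2 -2.03, SE 0.434, interval -2.95 to -1.12, adjusted p = 0.0106), where 1.88% were DE. With at most 3 counts in each MyTrMaSt + PBS library, the level in MyTrMaSt + CBE was at least 1.39-fold higher than the limit of 3 counts per library. No fold is given between the genotypes with PBS. The difference between the genotypes in the change with CBE was -0.88 on the log2 scale (SE 1.06, interval -3.11 to 1.34, adjusted p = 0.772). That interval is wide, with at most 4 counts in each PBS library. In the same unfiltered fit without WT + PBS replicate 1, the log2 change with CBE in WT mice was 2.40 (adjusted p = 0.00996). The difference between genotypes with CBE was then -2.03 (adjusted p = 0.00763). All these values rest on at most 25 counts in a library.

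Tbk1 (ENSMUSG00000020115.3, chromosome 10, 121546455 to 121586787, minus strand, 21 exons) encodes the constitutive kinase of the same pair. Its level was 35.2, 60.8 and 61.6 CPM in WT + PBS and 62.3, 60.1 and 71.1 CPM in WT + CBE. It was 59.4, 62.6 and 82.1 CPM in MyTrMaSt + PBS and 53.4, 50.3, 53.5, 41.9 and 62.2 CPM in MyTrMaSt + CBE. All groups compared overlapped, and WT + PBS replicate 1, the shallowest library, was the lowest of all. The log2 change with CBE was 0.26 in WT mice (SE 0.207, adjusted p = 0.497) and -0.38 in MyTrMaSt mice (SE 0.179, adjusted p = 0.213). The difference between these changes was -0.63 (interval -1.21 to -0.05), with an unadjusted p of 0.0336 and an adjusted p of 0.368. Without WT + PBS replicate 1 the change of Tbk1 in WT mice was 0.08 and the difference between the changes -0.44 (adjusted p = 0.476).

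The kinases IRAK1 and IRAK4 act next to MyD88. Irak1 (ENSMUSG00000031392.18, chromosome X, 74013914 to 74023918, minus strand, 15 exons) averaged 52.8 ± 13.7 CPM with PBS and 70.4 ± 8.12 with CBE in WT mice (SD, n = 3 each), and 54.6 ± 8.01 with PBS (SD, n = 3) and 65.1 ± 6.19 with CBE (SD, n = 5) in MyTrMaSt mice. The groups overlapped in all 4 comparisons. Its log2 change with CBE was 0.39 in WT mice (SE 0.189, interval -0.01 to 0.79, adjusted p = 0.215) and 0.25 in MyTrMaSt mice (SE 0.167, adjusted p = 0.383), and the first reached an adjusted p of 0.0483 without WT + PBS replicate 2 (log2 0.63). Irak4 (ENSMUSG00000059883.16, chromosome 15, 94543643 to 94581815, plus strand, 12 exons) was counted at most 8 times in a library and 0 times in 1 of them. Its intervals were wide, as for the log2 change with CBE in WT mice of 0.72 (interval -0.78 to 2.22) and changes inside them were not detectable at this depth. Irak4 shares 395 exon bases with Twf1 on the opposite strand. The overlap reaches the 3′ end of the gene record but not the last exon of the transcript described here, which ends before it at 94568306, and whether the counts use strand is not given in the sources used here.

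The ubiquitin ligases TRAF6 and TRAF3 stand in the NF-kappaB and the interferon branch. Traf6 (ENSMUSG00000027164.8, chromosome 2, 101678429 to 101701669, plus strand, 8 exons) was at 6.32, 9.12 and 12.2 CPM in WT + PBS and at 15.1, 14.1 and 9.64 CPM in WT + CBE. It was at 5.53, 8.72 and 7.40 CPM in MyTrMaSt + PBS and at 9.74, 14.3, 9.73, 15.3 and 11.4 CPM in MyTrMaSt + CBE. Both MyTrMaSt groups were thus separate and both WT groups overlapped. The log2 change with CBE was 0.72 in MyTrMaSt mice (SE 0.259, interval 0.17 to 1.26, adjusted p = 0.0982) and 0.46 in WT mice (SE 0.290, interval -0.15 to 1.07, adjusted p = 0.356). The former had an adjusted p of 0.0407 without WT + PBS replicate 1, and the difference between the changes was 0.26 (SE 0.388, adjusted p = 0.807).

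Traf3 (ENSMUSG00000021277.16, chromosome 12, 111166370 to 111267153, plus strand, 12 exons) differed little between groups. Its level was 100.2, 101.1 and 126 CPM in WT + PBS and 100.7, 102 and 98.2 CPM in WT + CBE. It was 112, 115 and 124 CPM in MyTrMaSt + PBS and 99.8, 104, 90.0, 89.6 and 90.8 CPM in MyTrMaSt + CBE, so that all MyTrMaSt + CBE libraries lay below those of MyTrMaSt + PBS. The log2 change was -0.30 (SE 0.123, interval -0.55 to -0.04, adjusted p = 0.152) in MyTrMaSt mice and -0.13 (SE 0.141, interval -0.42 to 0.17, adjusted p = 0.644) in WT mice. A 2-fold change of Traf3 lies outside both intervals.

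**Figure D2:**
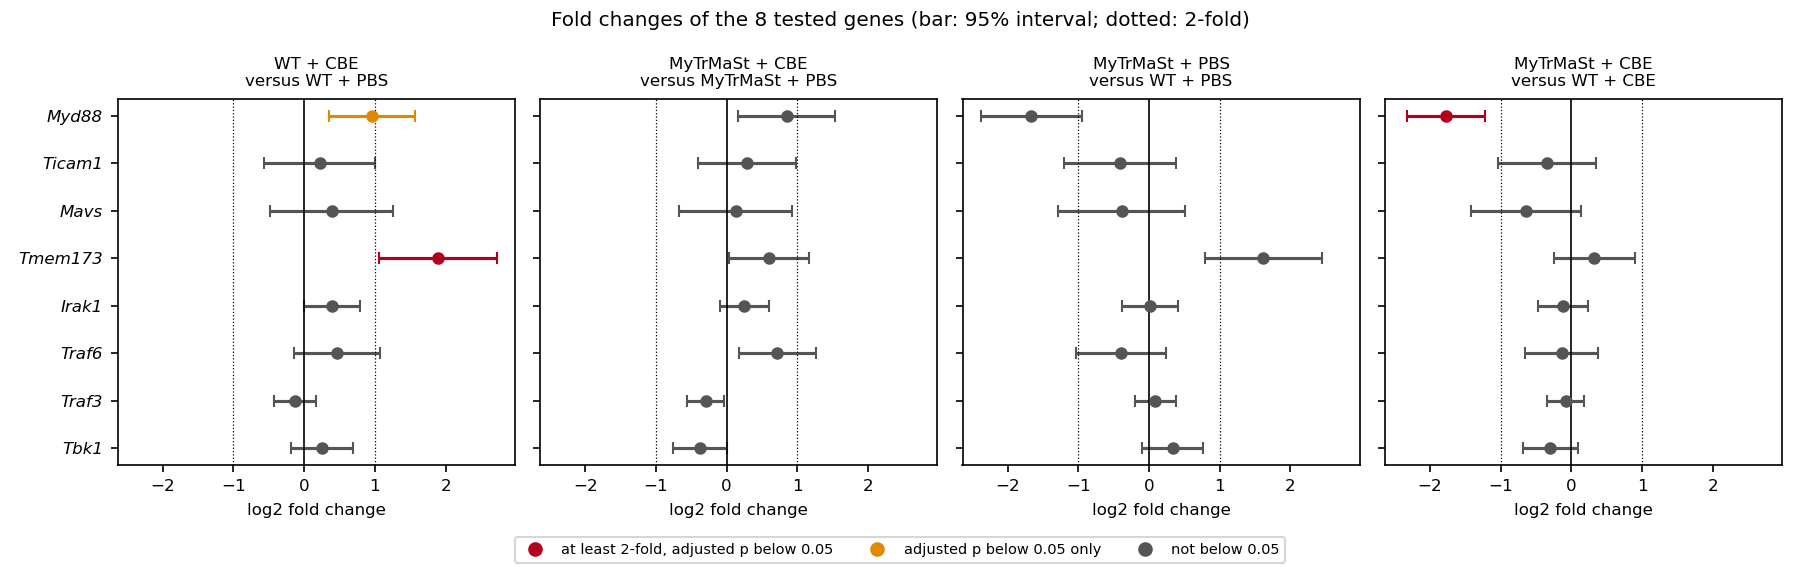
Log2 fold change (horizontal axis) of the 8 tested genes in the 4 comparisons; points are estimates, bars their 95% intervals, dotted lines mark 2-fold and colours the calls. Tmem173 in WT + CBE versus WT + PBS (1.89) and Myd88 in MyTrMaSt + CBE versus WT + CBE (-1.77) are the DE genes, and most of the other intervals span 0.

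Of the 8 tested genes, 1 was DE with CBE in WT mice and none in MyTrMaSt mice, where 3.89% of all tested genes were DE. In WT mice 2 of the 8 (Myd88 and Tmem173) had an unadjusted p below 0.05, beside 24.7% of all tested genes. In MyTrMaSt mice 4 of the 8 (Myd88, Tmem173, Traf6 and Traf3) had an unadjusted p below 0.05, beside 23.7% of all tested genes, and limma voom and DESeq2 also called none. Both comparisons with CBE had 2 of the 8 genes with groups that did not overlap, against 27.8% of all tested genes in WT and 22.5% in MyTrMaSt mice. The median log2 change of the 8 genes was 0.39 in WT and 0.27 in MyTrMaSt mice, while that of all tested genes was -0.02 and 0.01. In MyTrMaSt + CBE versus WT + CBE, 1 of the 8 (Myd88) had an unadjusted p below 0.05, beside 8.06%, and did not overlap, beside 9.91%. Between genotypes with PBS none was called by edgeR or limma voom and 1, Myd88, by DESeq2. There 2 of the 8 (Myd88 and Tmem173) had an unadjusted p below 0.05, beside 16.8% of all tested genes, and the same 2 did not overlap between groups, beside 20.2%. The difference between genotypes in the change with CBE (adjusted p below 0.05) was called for none of the 8 by edgeR, limma voom or DESeq2, where edgeR called 0.489% of all tested genes, and 2 (Tmem173 and Tbk1) had an unadjusted p below 0.05, beside 12.5%. Without WT + PBS replicate 1 2 of the 8 (Myd88 and Tmem173) were called in WT mice, 1 (Myd88) between genotypes with CBE and none in the other comparisons. The log2 values of Ticam1, Mavs, Irak1, Traf6 and Traf3 against WT + PBS then ran from -0.53 (Traf6 between genotypes) to 0.53 (Mavs in WT mice), none of them called.

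Markers of microglia moved with several of these results. The summed level of 12 microglia markers, all listed and none at 0 in a group, ran from 405 to 457 CPM with PBS and from 1539 to 1836 with CBE in WT mice, and from 368 to 398 with PBS and from 1112 to 1236 with CBE in MyTrMaSt mice. Of the 12, 7 were upregulated with CBE in WT and 6 in MyTrMaSt mice, 1 (Aif1) was lower in MyTrMaSt + CBE than in WT + CBE and 1 (Trem2) was lower in MyTrMaSt + PBS than in WT + PBS. Their part in the higher Tmem173, Myd88 and Ikbke with CBE was not tested. The mean sums of the other lists were, in the order above, 2911, 3997, 3189 and 4309 CPM for 7 astrocyte markers, 4327, 3661, 4904 and 4112 CPM for 8 neuronal markers and 17976, 11400, 18188 and 14505 CPM for 7 oligodendrocyte markers. For 6 endothelial markers they were 171, 141.5, 159 and 140.4 CPM, and for blood leukocytes, of which 3 of 8 markers were listed, 2.20, 22.4, 4.40 and 9.36 CPM. Most of the leukocyte sum was Ptprc, at 1.88, 21.1, 3.53 and 8.29 CPM, the only 1 of the 3 that was tested. That sum thus follows 1 gene and is no measure of blood cell number.

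The other genes of the pathway were grouped by role into 5 lists. Upstream of MyD88 and TRIF, 7 of 22 receptor and accessory genes were tested (10 were listed), and 6 were upregulated with CBE in each genotype, beside 5.2% of all tested genes in WT and 3.23% in MyTrMaSt mice. The median log2 change was 2.57 in WT and 2.23 in MyTrMaSt mice (1.85 with Tlr1 at its bound). In WT mice these included Tlr2, the receptor for bacterial lipopeptides, with a log2 change of 4.06 (SE 0.363, adjusted p = 3.32e-07), Tlr13, a receptor for bacterial ribosomal RNA, with 3.15 (SE 0.426), and the co-receptor Cd14 with 3.06 (SE 0.339). In MyTrMaSt mice, Cd14 changed by 3.09 (SE 0.308, adjusted p = 3.54e-06), Tlr2 by 2.38 (SE 0.366, adjusted p = 0.000425) and Tlr1 at least 3.38-fold. Lower in MyTrMaSt + CBE than in WT + CBE were 2 of the 7, Tlr2 (log2 -1.999, SE 0.245, adjusted p = 3.37e-05) and Tlr13 (log2 -1.10, SE 0.284, adjusted p = 0.0480), beside 1.93% of all tested genes, and the call of Tlr13 was lost in 14 of 21 alternatives, among them the fits without any 1 of 11 libraries (all but WT + PBS replicate 1, WT + CBE replicate 2 and MyTrMaSt + CBE replicate 2). None of the 7 was called between genotypes with PBS or for the difference in the change with CBE, and 1 in each had an unadjusted p below 0.05, beside 16.8% and 12.5% of all tested genes.

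Upstream of MAVS and STING, 10 of 11 genes of the sensor list were tested. The list also holds enzymes that are not sensors, such as Trim25 and Trex1. Of these, 5 (Ddx58, Dhx58, Ifih1, Zbp1 and Zc3hav1) reached the level the filter asks for in enough libraries only through WT + CBE, so their calls against WT + CBE are a description, and no median of the list is given. Of the 5 others, 2 were upregulated with CBE in WT mice and lower in MyTrMaSt + CBE than in WT + CBE, Trim25, a ubiquitin ligase that acts on RIG-I (log2 1.94, adjusted p = 0.000448, and -1.85, adjusted p = 0.000247), and Trex1, a DNA exonuclease (log2 1.05, adjusted p = 0.00840, and -1.51, adjusted p = 0.000164). Of the same 5, Mb21d1 (cGAS), Ddx41 and Rnf135 were called in no comparison. With the 5 genes that passed through WT + CBE, the number upregulated in WT mice was 7 of the 10, beside 5.2% of all tested genes. None was upregulated in MyTrMaSt mice, beside 3.23%, and none had an unadjusted p below 0.05 there, beside 23.7%. In WT mice the level with CBE was higher at least 21.0-fold for Zbp1, a sensor of Z-form nucleic acids, at least 5.63-fold for Zc3hav1, an antiviral zinc finger protein, and at least 4.09-fold for Ifih1, which encodes MDA5, each against the limit of 3 counts per library. The number lower in MyTrMaSt + CBE than in WT + CBE was also 7 of the 10, beside 1.93% of all tested genes. Among them were Zbp1 (log2 -5.27, SE 0.495, and a fitted -6.62 without MyTrMaSt + CBE replicate 4, which held 7 of its counts), Zc3hav1 (log2 -2.95, SE 0.480) and Dhx58, which encodes LGP2, at least 8.70-fold. The difference in the change with CBE was called for none, beside 0.489% of all tested genes, and for 1 without MyTrMaSt + CBE replicate 1. An unadjusted p below 0.05 was found for 5, beside 12.5%.

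At the level of the 10 genes, 19 of 26 other adaptors, kinases and ubiquitin enzymes were tested. Only Birc3, a ubiquitin ligase of the NF-kappaB route, was DE in WT mice (log2 1.99, SE 0.550), beside 6.4% of all tested genes. Birc3 passed the filter through WT + CBE alone, so its call is a description. That call was lost without WT + PBS replicate 3 or any 1 WT + CBE library (highest adjusted p over all alternatives 0.0897). None of the 19 was DE in MyTrMaSt mice or between genotypes, where 6 (MyTrMaSt, CBE versus PBS), 3 (genotypes, PBS) and 2 (genotypes, CBE) had an unadjusted p below 0.05, beside 23.7%, 16.8% and 8.06% of all tested genes. The median log2 change with CBE was 0.25 in WT and 0.13 in MyTrMaSt mice.

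Downstream, 14 of 15 transcription factor genes were tested, 13 of which reached the filter's level outside WT + CBE. Any call of the remaining gene against WT + CBE is a description. In WT mice 9 were upregulated with CBE (median log2 1.57), beside 5.2% of all tested genes. They were led by Irf7 (log2 4.73, SE 0.352, adjusted p = 3.88e-08), Irf8 (3.22, SE 0.389, and 4.14 without WT + PBS replicate 2) and Irf9 (2.87, SE 0.246), which act in or after interferon signaling. In MyTrMaSt mice 3 were upregulated (median 0.39), beside 3.23%: Irf8 (log2 1.96, SE 0.353), Irf5 (1.80, SE 0.191), a factor activated through MyD88, and Nfkb2 (1.13, SE 0.320, adjusted p = 0.0386), which was lost in 10 of 21 alternatives. Lower in MyTrMaSt + CBE than in WT + CBE were 7 of the 14 (median -1.02), beside 1.93%, or 4 without WT + CBE replicate 2, with log2 differences of -5.99 for Irf7 (SE 0.311) and -2.99 for Irf9 (SE 0.205). The change with CBE differed between genotypes for 4, beside 0.489% of all tested genes, among them Irf7 (log2 -3.59, SE 0.731), Irf9 (-2.33, SE 0.343) and Stat2 (-1.70, SE 0.271), and for 2 without WT + PBS replicate 3, WT + CBE replicate 1, MyTrMaSt + PBS replicate 1 or 3, or MyTrMaSt + CBE replicate 2 or 3. With Xist as a covariate it differed for none, and the call of Irf7 was lost in 9 of 20 alternatives, 8 of them fits without 1 library (log2 -3.92 to -2.84).

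Of 23 inhibitors, 18 were tested and 6 were upregulated with CBE in WT mice, beside 5.2% of all tested genes. Dok3, Nlrc5 and Usp18 passed the filter through WT + CBE alone, so any call of these 3 against WT + CBE is a description. The 6 included Usp18, which restrains interferon receptor signaling (log2 4.41, SE 0.379), Socs3, a brake on cytokine receptors (2.90, SE 0.560, adjusted p = 0.00198), and Nlrc5, at least 5.86-fold. In MyTrMaSt mice 2 were upregulated, beside 3.23% of all tested genes. These were Socs3 (log2 2.29, SE 0.477, adjusted p = 0.00581, and 1.69 without MyTrMaSt + CBE replicate 4) and Nfkbia, the inhibitor of NF-kappaB (1.003, SE 0.172, adjusted p = 0.00128). Nfkbia lies at the 2-fold threshold, and the count was 1 without MyTrMaSt + PBS replicate 2 or 3 or MyTrMaSt + CBE replicate 2, 3 or 4. Lower in MyTrMaSt + CBE than in WT + CBE were 4 of the 18, beside 1.93% of all tested genes. Among them were Usp18 (at least 40.2-fold), Nlrc5 (log2 -3.23, SE 0.451) and Tnfaip3, which encodes the deubiquitinase A20 (log2 -1.24, SE 0.255, adjusted p = 0.00794, and 0.0519 without WT + CBE replicate 3). Without WT + PBS replicate 1 the counts of the 5 lists, in the order given, were 6, 7, 1, 9 and 8 with CBE in WT mice and 2, 7, 0, 8 and 5 between genotypes with CBE. Zbp1, Ifih1, Irf7, Irf9 and Usp18 are among the genes known to be induced by interferon. The comparisons in these lists share libraries, those with CBE in both genotypes and WT + CBE between them.

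**Figure D3:**
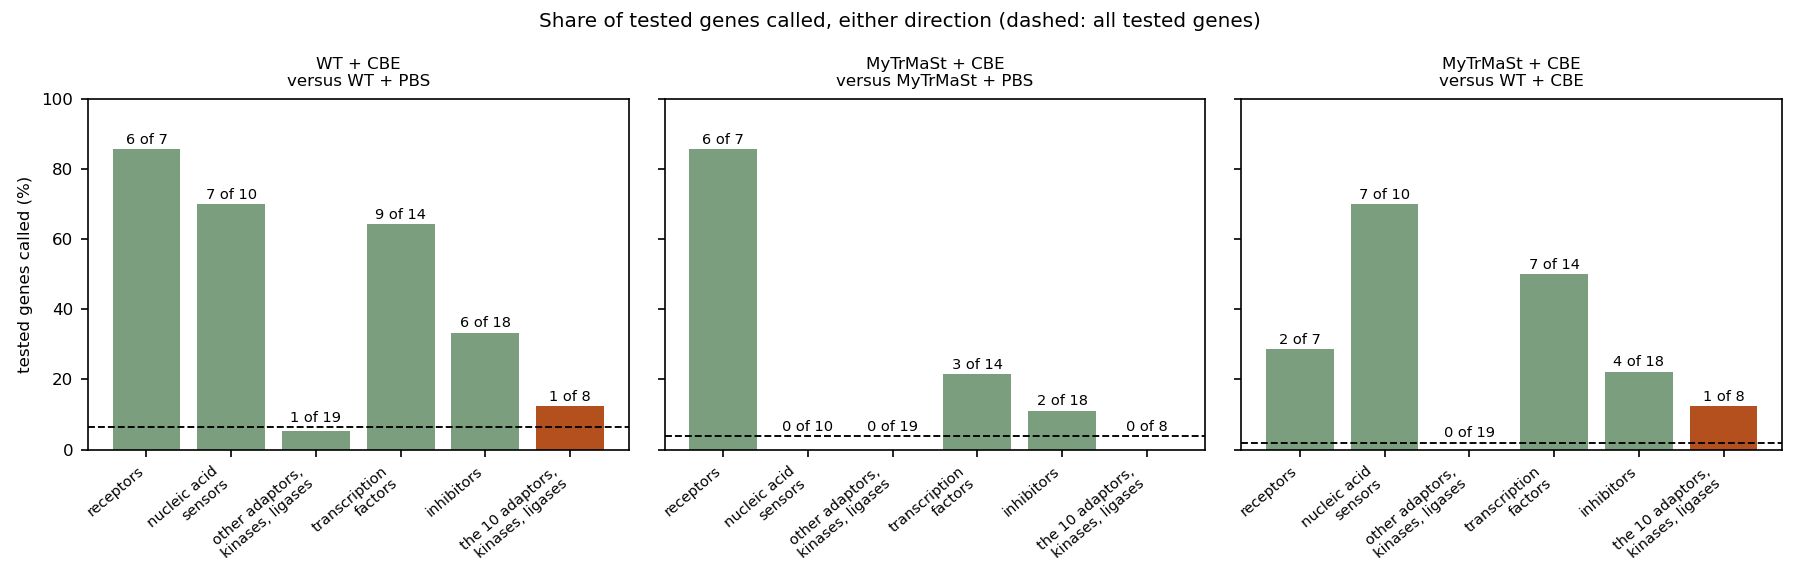
Share of the tested genes of each list that was DE in either direction (vertical axis, percent), with the counts above each bar and the share among all 11852 tested genes as a dashed line (6.4%, 3.89% and 2.01%). Receptors were DE in both genotypes with CBE (6 of 7 each), sensors 7 of 10 in WT and 0 of 10 in MyTrMaSt mice, and the 10 adaptors, kinases and ligases had 1, 0 and 1 of the 8 tested; 5 of the sensors passed the filter through WT + CBE alone.

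The counts of each deleted gene were read beside the 10 nearest tested genes on either side, 80 neighbours in all, which reach 3.25 Mb from Myd88, 0.445 Mb from Ticam1, 1.03 Mb from Mavs and 0.826 Mb from Tmem173. Between genotypes with PBS none of the 80 was DE by edgeR, where 15 had an unadjusted p below 0.05 (16.8% of all tested genes did), and 1 was DE by DESeq2 and 5 by edgeR without WT + PBS replicate 2. None of the 20 neighbours of Myd88 had a larger log2 difference in size than Myd88 with PBS or with CBE, and the same was so for Tmem173 with PBS and for Mavs with CBE, whose own differences did not pass the test. With CBE, 4 of the 80 had an unadjusted p below 0.05, beside 8.06% of all tested genes, and the genotypes differed in 1 neighbour, Ecscr, an endothelial surface protein gene next to Tmem173 (log2 -1.24, SE 0.300, adjusted p = 0.0302). The count was 2 without WT + PBS replicate 1. The call of Ecscr was lost without any 1 WT + CBE library or without MyTrMaSt + CBE replicate 1, 2 or 3, where the adjusted p reached 0.188. Ecscr was also 1 of 7 of the 80 neighbours that were DE with CBE in WT mice (log2 1.37), beside 6.4% of all tested genes, a call lost without WT + PBS replicate 2 or 3 or WT + CBE replicate 1 or 2 (adjusted p of up to 0.143 over all alternatives).

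The other 6 neighbours that were DE with CBE in WT mice were Tgfbr2 (log2 1.49), Cx3cr1 (1.85) and Plin4 (3.27, and 4.28 without WT + PBS replicate 2), which were also DE in MyTrMaSt mice (1.02, 1.08 and at least 13.7-fold), and Lrg1 (1.65, and 2.34 without WT + PBS replicate 1), Sema6b (-1.37) and Tnfaip8l1 (-1.02). Of 21 alternatives each, the call of Tnfaip8l1 was lost in 19, with an adjusted p of up to 0.340, and that of Lrg1 in 7. The call of Sema6b was lost in 3 of 22, 2 of them without WT + CBE replicate 1 or 2, and that of Cx3cr1 in MyTrMaSt mice without any 1 MyTrMaSt + PBS library (adjusted p of up to 0.0897). Cx3cr1, the fractalkine receptor, is among the microglia markers above. The 7 calls in WT mice fell to 5 without WT + PBS replicate 1, to 3 without WT + CBE replicate 1 and to 4 without WT + CBE replicate 2 or WT + PBS replicate 2 or 3. The 3 of 80 in MyTrMaSt mice, beside 3.89% of all tested genes, became 6 without WT + PBS replicate 1 and 1 without MyTrMaSt + PBS replicate 2.

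**Figure D4:**
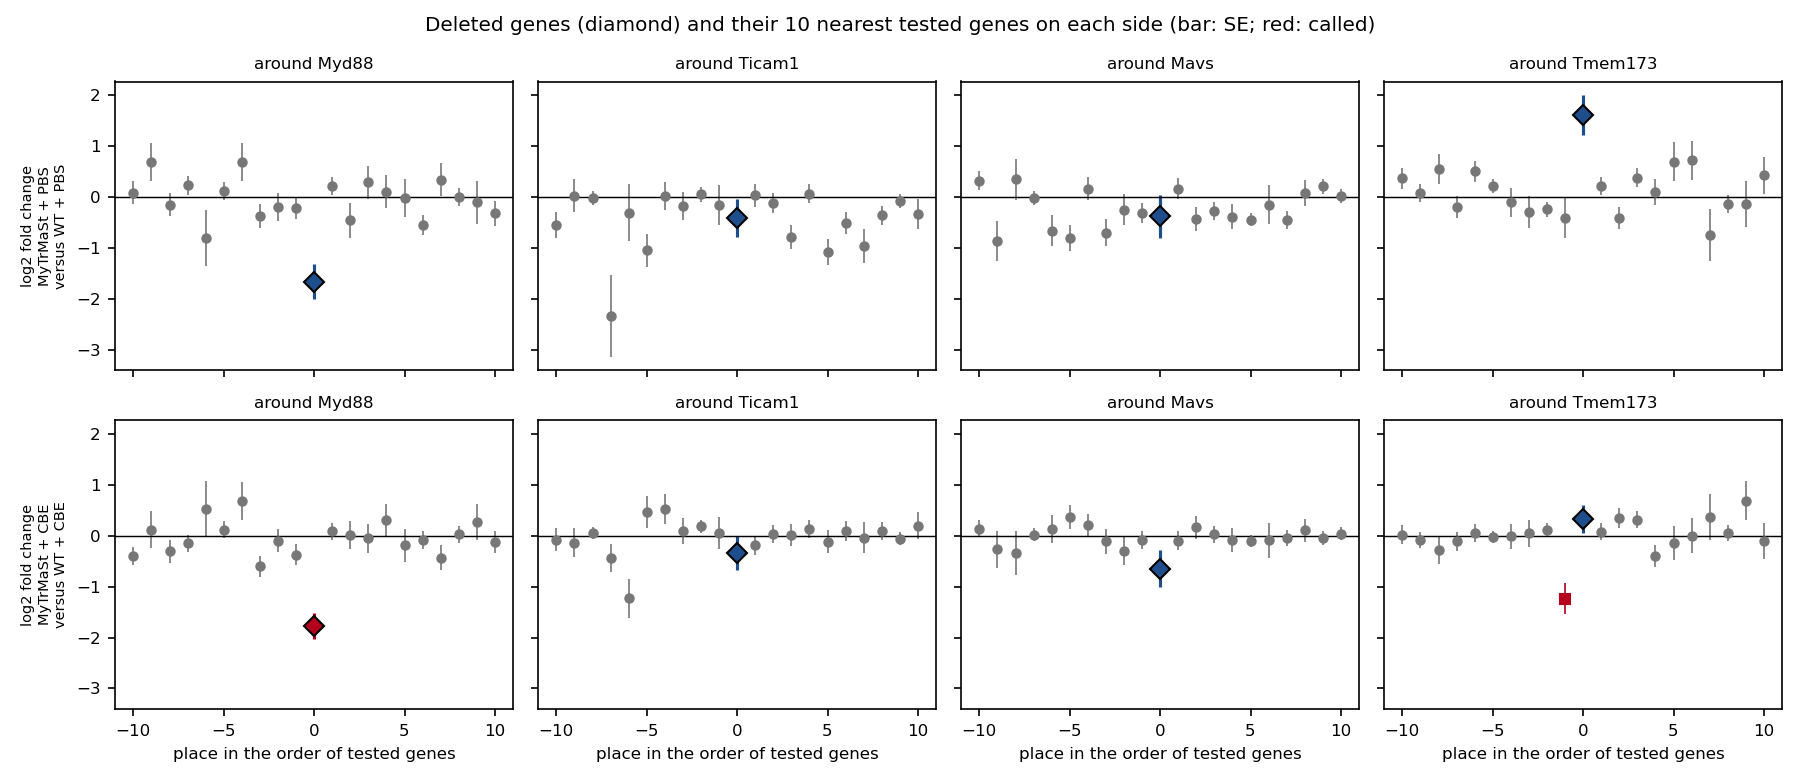
Log2 fold change between genotypes (vertical axis, bars SE) of each deleted gene (diamond at place 0) and its 10 nearest tested genes on each side, in their order along the chromosome (horizontal axis), with PBS above and CBE below; red marks DE. Myd88 was DE with CBE and exceeds its neighbours under both treatments, while the differences of Ticam1, Mavs and Tmem173 did not pass the test under either.

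Genes whose levels were most like those of the 2 DE genes were found by the Pearson correlation of log2 CPM over the 14 libraries, which share the group differences. For Myd88 they were Lipe, which encodes hormone-sensitive lipase (r = 0.918), Oasl1, an interferon-induced gene (0.902), and Dnajb14 (0.874). Oasl1 averaged 1.504 CPM with PBS and 44.8 with CBE in WT mice, and 0 and 0.503 in MyTrMaSt mice, so that both WT groups stood above both MyTrMaSt groups, as for Myd88. For Tmem173 they were Smg1, a kinase of RNA surveillance (0.902), H3f3b, a histone H3.3 gene (0.900), and Ednrb, the endothelin receptor B gene (0.890). Ednrb averaged 73.8 and 109 CPM in WT mice with PBS and CBE, and 103 and 113 CPM in MyTrMaSt mice. With 14 libraries in 4 groups, these values describe likeness in this experiment.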

How the data were processed

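Gene counts of 14 brain libraries (1 mouse each) were analysed as deposited. Per the labels and the study's methods, the authors trimmed bulk MARSseq 3′ end reads with cutadapt, aligned them to mm10 with hisat, kept unique reads and counted them per gene (HTSeq is named in the submitters' processing notes). The annotation and the strand setting are not given in the sources used here. The deposited normalized table and the table of the authors' own comparisons (means, log2 fold changes, p and adjusted p) were not used. Of the gene names, 22 were dates.

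The 10 genes, the lists and the tests were chosen with earlier results of these data known. Groups follow the labels. edgeR 4.0.16 (R 4.3.3) fitted 4 group means in 1 quasi-likelihood model with TMM scaling, after its filter by expression left 11852 of 13866 genes, with Benjamini-Hochberg adjustment. The script was tested on simulated data. Alternatives were RLE scaling, DESeq2 1.42.0, limma voom (limma 3.58.1), other count filters, only the groups compared, a replicate block, Xist as a covariate, no 2-fold threshold and leaving out each library. Alternatives for the lists and neighbours, and the unfiltered fit without WT + PBS replicate 1, were added after seeing the data. Tables were joined with pandas 2.3.3 (Python 3.11.15).

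Libraries held 1290616 to 3704691 counts. A gene with at most 3 counts in each library of a group is given by a bound against 3 counts per library, which covers counting error only. Named were the 10 genes, in each list and comparison at most the 3 DE genes with the largest change, each DE neighbour, Acaa1a, and the 3 genes most correlated with each DE gene. Stat2, Aif1, Trem2, Trim25, Trex1, Ddx58, Dok3, Ptprc, Mb21d1, Ddx41 and Rnf135 were named after their values were seen. The values of 1 gene that this rule takes are not reported here. Replicates differed by more than sampling noise in all 19 pairs (chi-square per degree of freedom 2.31 to 20.2), most in both pairs that hold WT + PBS replicate 1.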

Additional observations from a re-analysis of the deposited data

Results flagged for a closer look

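Only MyTrMaSt + CBE, with 5 libraries, was large enough for the test of single gene levels. In it 1 library stood apart from the others in 3 of 38 gene levels examined, where chance would set apart about 1 in 20. Socs3 was at 53.2 CPM in replicate 4 and at 12.1 to 16.2 CPM in the others. Zbp1 was at 3.45 CPM in replicate 4 and at 0 to 0.811 CPM in the others. Ifih1 was at 2.73 CPM in replicate 1, from 7 counts, and at 0.405 to 0.783 CPM in the others.

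The change with CBE differed between the genotypes for transcription factor genes, by a term for that difference in the edgeR model. The difference on the log2 scale, MyTrMaSt minus WT, was -3.59 for Irf7 (adjusted p = 0.0317), -2.33 for Irf9 (adjusted p = 0.00310) and -1.70 for Stat2 (adjusted p = 0.00520). With Xist as a covariate none of these passed, and the highest adjusted p over all alternatives was 0.459 for Irf7, 0.113 for Irf9 and 0.152 for Stat2.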

How the results depend on the processing

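Of 863 alternative values of 42 results on the 10 genes, 830 kept their direction and their side of the threshold. The count of genes called in WT + CBE versus WT + PBS, 1, became 2 without the filter on low counts (Ikbke and Tmem173), 0 with at least 10 counts in every library, where neither Myd88 nor Tmem173 was tested, 2 without the 2-fold threshold (Myd88 and Tmem173), and 1 to 3 when 1 library was left out, with Ikbke among the added calls. In MyTrMaSt + PBS versus WT + PBS, 0 became 1 with DESeq2 (Myd88) and 0 to 2 when 1 library was left out (Myd88 and Tmem173 without WT + PBS replicate 2). In MyTrMaSt + CBE versus WT + CBE, 1 became 2 without the filter (Ikbke and Myd88), 0 with at least 10 counts and 1 to 2 when 1 library was left out. In the 7 fits without 1 library that include Ikbke it passed the filter through WT + CBE alone, so its calls there are a description. Directions reversed for small differences only. Ticam1 in WT mice was -0.23 with Xist as a covariate and -0.028 to 0.46 without 1 library, and its difference between the changes was -0.0047 with at least 10 counts and -0.17 to 0.47 without 1 library. The difference between the changes of Traf6 was -0.12 with the Xist covariate, that of Myd88 ran from -0.28 to 0.10 and that of Mavs from -0.63 to 0.016 without 1 library. Mavs in MyTrMaSt mice ran from -0.24 to 0.41, and Irak1 between genotypes with PBS from -0.13 to 0.25. The cause was not tested. In WT mice Myd88 had an adjusted p of 0.106 with only the groups compared and 0.0644 with the Xist covariate. Same-numbered libraries did not deviate together (r from -0.17 to 0.16, 3 of 18 pairs over 0.1). With the replicate number as a block, the counts of genes called were 1, 0, 0, 1 and 0, as without it. The block also lost the call of Tlr13, as did DESeq2 and no filter. With at least 10 counts in every library no receptor gene was tested and the other lists fell in WT mice from 7 to 1 (sensors), 1 to 0 (other adaptors and kinases), 9 to 2 (transcription factors), 6 to 2 (inhibitors) and 7 to 3 (neighbours). In MyTrMaSt mice they fell from 3 to 0, 2 to 0 and 3 to 1 (transcription factors, inhibitors, neighbours), and between genotypes with CBE from 7 to 1, 7 to 2 and 4 to 0 (sensors, transcription factors, inhibitors), as fewer genes were tested. The difference between the changes was then called for 2 and not 4 transcription factors, and for 2 inhibitors with DESeq2 and 1 with limma voom. With the Xist covariate WT calls were 3 of the sensors and 0 of the other adaptors, and with only the groups compared 0 of the other adaptors and 3 neighbours. Inhibitors called in MyTrMaSt mice were 1 with RLE scaling, DESeq2 or the Xist covariate. Neighbours called in MyTrMaSt mice were 5 with DESeq2 or only the groups compared, and between genotypes with CBE 2 with only the groups compared. DESeq2 called 1 transcription factor between genotypes with PBS. Low counts limit Irak4, Ikbke, Ticam1, Mavs and Tmem173.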
